A study of Mus musculus with 12 samples.

Results

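The genes nearest to binding sites of the transcription factor cJun were compared between Min6 cells with and without inhibition of the cJun N-terminal kinases (JNK). Each cJun peak in the list from control cells (DMSO) and in the list from inhibitor-treated cells (JNKi) was given to the protein-coding gene whose transcription start site lay nearest to the peak midpoint. Of 21911 protein-coding genes, 3468 received at least 1 peak in either list. Min6, a line from a mouse insulinoma, keeps many traits of β cells, and all samples come from this 1 line. Cells were given SP600125, which inhibits JNK, at 20 µM or DMSO alone for 48 hours, and 550000 cells entered each CUT&RUN reaction, an assay in which an antibody guides a nuclease to cut and release the DNA around its target. Antibodies to cJun, to H3K4me3 (a histone mark of promoters, used as positive control) and non-specific IgG (negative control) gave 6 groups with 2 biological replicates each, or 12 samples. The deposited cJun data are 1 peak list per treatment that combines both replicates, with 4960 peaks in DMSO and 1632 in JNKi. The labels give the same depth of 30000000 paired-end reads for every sample, but the number of reads left after filtering behind each list is not given in the sources used here. A difference in list length cannot be set against the spread between replicates, and fewer bound sites cannot be told apart from less material or weaker libraries.

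JNK phosphorylates cJun, which increases its capacity to activate transcription. cJun binds DNA as a dimer, with FOS or JUN partners at the AP-1 site and with ATF partners at the related cAMP response element (CRE). Genes known to respond to this pathway include immediate early genes, the AP-1 genes themselves, and the dual-specificity phosphatases that switch MAP kinases off.

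Sequences under peaks of each gene class are shown first, to show what lay at the summits. The AP-1 site was searched as TGACTCA or TGAGTCA and the CRE as TGACGTCA on both strands within 100 bp of the peak summit. Capitals mark these sites in the plus strand of GRCm38, and each line has 30 bases on either side of the site except the first, which is a run of sites with 10 bases at its ends. The first is shown for its repeats, as this peak near Twsg1 ranked 8 of 4960 in DMSO and 11 of 1632 in JNKi and held 16 AP-1 sites, 5 of them in the 202 bases printed (chr17:65961734-65961935, intergenic). The next pair lay under peaks found in both lists, near both summits for Eif2ak3 and near the DMSO summit alone for Klf4, in an intron of Eif2ak3 (chr6:70872250-70872316) and upstream of Klf4 (chr4:55532966-55533032, outside annotated genes). The Dusp8 pair shows CREs in an intron near a start site of the gene (chr7:142095310-142095377 and chr7:142095354-142095421), under a peak found in both lists but near the JNKi summit alone. Dok5 (chr2:171209937-171210003, in an intron of the non-coding gene Gm14266) and Dusp7 (chr9:106361313-106361379, intergenic) had peaks in DMSO alone. The printed site lay under a peak at rank 229 for Dok5 and under a low peak at rank 4472 of 4960 for Dusp7. Slc35f5 (chr1:125560668-125560734, in an intron) and Heca (chr10:17948183-17948250, outside annotated genes) had a peak in JNKi alone.
Twsg1, both lists: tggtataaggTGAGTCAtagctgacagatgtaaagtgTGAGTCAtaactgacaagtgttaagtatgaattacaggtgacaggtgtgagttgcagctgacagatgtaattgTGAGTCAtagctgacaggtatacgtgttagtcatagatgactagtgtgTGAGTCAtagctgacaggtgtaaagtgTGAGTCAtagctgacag
Eif2ak3, both lists: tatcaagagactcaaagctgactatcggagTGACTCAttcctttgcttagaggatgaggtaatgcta
Klf4, near the DMSO summit: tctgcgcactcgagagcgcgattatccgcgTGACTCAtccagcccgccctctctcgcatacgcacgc
Dusp8, near the JNKi summit, first CRE: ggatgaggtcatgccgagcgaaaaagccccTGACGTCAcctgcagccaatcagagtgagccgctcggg
Dusp8, near the JNKi summit, second CRE: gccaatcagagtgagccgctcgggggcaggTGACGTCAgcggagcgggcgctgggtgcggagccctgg
Dok5, DMSO only: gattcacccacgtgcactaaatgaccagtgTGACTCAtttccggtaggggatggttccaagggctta
Dusp7, DMSO only: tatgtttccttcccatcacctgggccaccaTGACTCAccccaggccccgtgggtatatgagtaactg
Slc35f5, JNKi only: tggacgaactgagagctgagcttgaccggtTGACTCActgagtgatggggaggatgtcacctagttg
Heca, JNKi only: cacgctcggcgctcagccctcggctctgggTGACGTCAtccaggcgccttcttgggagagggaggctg

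The first comparison asked how far the genes near cJun were shared by the treatments. The DMSO peaks reached 3217 genes (14.7% of all protein-coding genes) and the JNKi peaks 1287 (5.87%), so that the JNKi gene set was 40.0% as large while its peak list was 32.9% as long. Both lists reached 1036 genes (4.73%), DMSO alone 2181 (9.95%) and JNKi alone 251 (1.15%). The shared genes were 32.2% of the DMSO genes (95% Wilson interval 30.6 to 33.8) and 80.5% of the JNKi genes (78.2 to 82.6). The irreproducible discovery rate (IDR), which measures how well a peak is matched between replicates, was at most 0.05 at 8.97% of DMSO and 15.6% of JNKi peaks. It was so for the best DMSO peak of 28.9% of shared genes and 4.49% of DMSO-only genes, and for the best JNKi peak of 19.7% of shared genes and 9.16% of JNKi-only genes. With peaks limited to this IDR, 397 DMSO genes and 227 JNKi genes remained, with 146 in common. The intervals given here and in what follows cover counting error over genes or peaks only, and with 1 list per treatment no test of the counts was made.

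Because the longer list bounds these shares, the 1632 DMSO peaks with the highest −log10 p were set against the 1632 JNKi peaks. The last DMSO peak taken had a −log10 p of 7.29, a value that 7 DMSO peaks held. At equal length, 1318 DMSO genes (6.02%) and 1287 JNKi genes had 681 in common (3.11%), with 637 in DMSO only (2.91%) and 606 in JNKi only (2.77%). The shared genes were 51.7% of the DMSO genes (49.0 to 54.4) and 52.9% of the JNKi genes (50.2 to 55.6). With the lists cut to the same length, the classes left over are near in size by construction. The share of JNKi genes also found in an equally long DMSO list was 40.9% for the 50 highest peaks (27.7 to 55.6), 55.5% for the 200 highest (48.2 to 62.5) and 46.7% for the 500 highest (42.2 to 51.4), and these intervals overlapped. Measured against the full DMSO list, 93.2% of the genes of the 50 highest JNKi peaks had a DMSO peak.

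**Figure D1:**
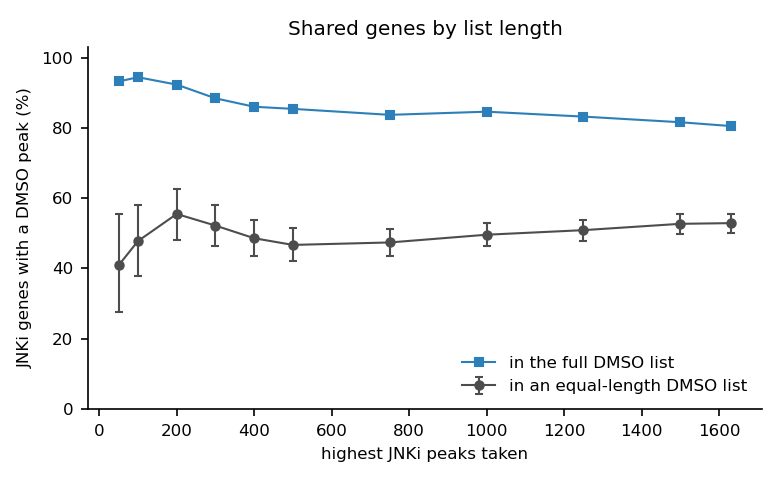
The x axis is the number of highest JNKi peaks taken and the y axis the percent of their nearest genes that also had a DMSO peak, in a DMSO list of the same length (circles, with 95% Wilson intervals) or in the full DMSO list (squares). The equal-length share lay between 40.9% and 55.5%, and the full-list share went from 93.2% at 50 peaks to 80.5% at all 1632.

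A gene in both lists usually had the same site in both. Of the 1036 shared genes, 923 (89.1%) had a DMSO peak overlapped by a JNKi peak by at least 1 bp, and 113 (10.9%) had peaks at different places. Conversely, 9 of the 2181 DMSO-only genes and 10 of the 251 JNKi-only genes had a peak that the other list also held but that fell to a neighbouring gene. Lamtor1 and Tomt are such a pair. Lamtor1 encodes a lysosomal scaffold protein of MAP kinase and mTORC1 signalling, and its DMSO peak (chr7:101905296-101906945, rank 7) overlapped the JNKi peak given to Tomt (chr7:101905422-101907348, rank 25). Their class therefore came from the position of the midpoint and not from the presence of a peak.

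Genes with several peaks, and genes with high-ranking peaks, were shared most often. Among DMSO genes, 22.8% of those with 1 peak also had a JNKi peak (526 of 2307, interval 21.1 to 24.6), 45.9% of those with 2, 64.9% of those with 3 to 4 and 84.5% of those with 5 or more (82 of 97, 76.0 to 90.4). By the rank of the best peak, the share was 66.1% in the highest quintile of DMSO genes (62.4 to 69.7), 38.4% in the next and 14.6% in the lowest (12.1 to 17.5). A gene with more peaks has more chances of a match, and this was not separated from rank. Among JNKi genes, 89.1% (84.8 to 92.4) of the highest quintile and 70.2% (64.3 to 75.4) of the lowest were also in the DMSO list. Across the 1036 shared genes, the ranks of the best peaks in the lists had a Spearman's rho of 0.47, a description across genes that share their libraries.

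**Figure D2:**
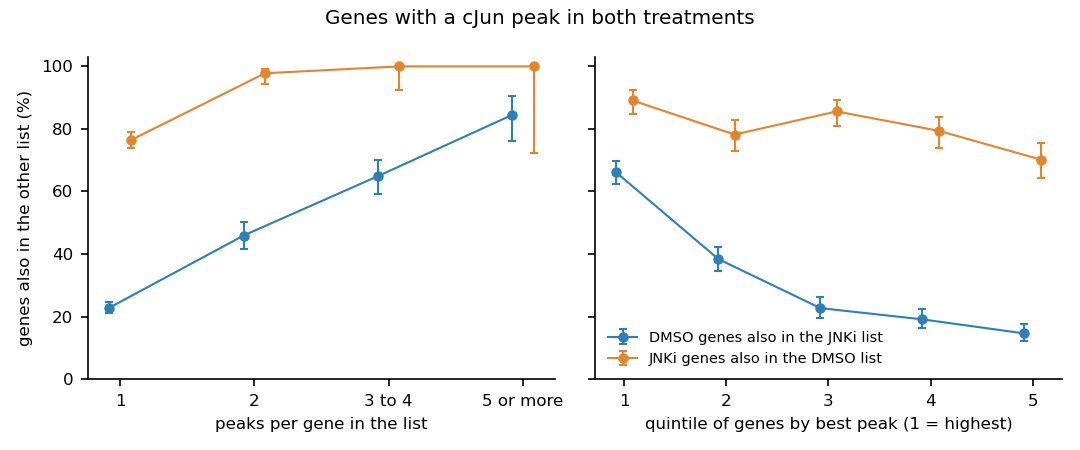
Points are the percent of genes of one list that also had a peak in the other, with 95% Wilson intervals over genes, by the number of peaks of the gene (left) and by quintiles of genes ordered by their best peak, where 1 is the highest (right). DMSO genes ran from 22.8% at 1 peak to 84.5% at 5 or more, and from 66.1% to 14.6% down the quintiles, while JNKi genes stayed at or above 70.2%.

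The position of the peaks differed between gene classes. The best JNKi peak of the 251 JNKi-only genes lay a median of 377 bp from the start site, against 15316 bp for the JNKi peaks of shared genes. In JNKi-only genes 70.9% of best peaks lay over H3K4me3, against 55.1% in shared genes, and 17.9% were under 300 bp wide against 6.66%. The best DMSO peaks of DMSO-only genes had a median distance of 7359 bp, with 59.3% over H3K4me3 and 9.35% under 300 bp. These contrasts depended on list length. At equal length the median distance was 6037 bp for the 606 JNKi-only genes and 6079 bp for the 637 DMSO-only genes, and 64.7% and 63.0% of best peaks lay over H3K4me3, against 52.4% and 52.9% in shared genes. Peaks under 300 bp were then less frequent in JNKi-only genes, at 11.1%, than in DMSO-only genes, at 15.2%. Of JNKi genes whose best peak lay within 3 kb of the start site, 70.0% were in the DMSO list (65.8 to 73.8), against 90.9% of those beyond 50 kb (87.2 to 93.6). Among DMSO genes the same shares in the JNKi list were 27.2% (24.8 to 29.6) and 36.3% (33.0 to 39.7).

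A gene with no near neighbour collects peaks from a wider stretch, and this moved with the classes. The stretch of sequence nearer to a gene's start sites than to any other had a median of 137 kb for shared genes, 102 kb for DMSO-only genes, 70.5 kb for JNKi-only genes and 41.6 kb for genes without a cJun peak. At equal list length the medians were 140 kb for shared, 102 kb for DMSO-only and 101 kb for JNKi-only genes. In the quintile of genes with the shortest stretches 5.18% held DMSO peaks and 1.96% JNKi peaks, and in the quintile with the longest 31.5% and 12.9%. The share of JNKi genes that were also in the DMSO list went from 58.1% in the quintile with the shortest stretches to 89.2% in that with the longest, and the share of DMSO genes in the JNKi list from 22% to 36.4%.

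Start sites of the classes carried H3K4me3, a readout not used to choose the genes, at like shares. A DMSO H3K4me3 peak lay over a start site in 84.9% of shared genes (82.6 to 87.0), 83.1% of DMSO-only genes (81.5 to 84.6) and 84.1% of JNKi-only genes (79.0 to 88.1), against 51.8% (51.1 to 52.5) of genes without a cJun peak. The JNKi H3K4me3 list gave 84.7%, 82.8%, 84.1% and 51.3%. The shares differed by less than their intervals between the classes with a cJun peak and between the treatments. Among the 12458 genes with H3K4me3, 23.3% had a cJun peak in either list and 7.06% in both, and these shares serve as a second background for the gene lists. As a check of the cell type, H3K4me3 marked 7 of 8 β-cell genes in both treatments, the exception being Ins1, as well as 3 of 4 α-cell genes (Gcg, Irx1 and Irx2), and none of the markers of δ, acinar, duct or endothelial cells, macrophages or fibroblasts.

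The genes at the top of the lists were then examined, using ranks within each list (1 is the highest of 4960 in DMSO or of 1632 in JNKi) and the −log10 p of the first and second replicate in the order of the deposited columns. The −log10 p depends on depth and is not compared between lists. The 8 shared genes with the highest mean percentile were Gm21887, Irf2bp2, Ppp2r3d, St6galnac6, Slc30a5, Twsg1, 2010315B03Rik and Tmem267, leaving out chromosome Y and scaffolds. Whether the sequence at Gm21887, on chromosome X, also lies in several places was not examined. Irf2bp2 encodes a transcriptional corepressor. Its best peak (chr8:126536677-126537804, intergenic, 56745 bp from the start site) had a −log10 p of 67.8 and 51.6 in DMSO (rank 10), and the matching JNKi peak 80.6 and 76.7 (rank 4). St6galnac6, a sialyltransferase gene, had a promoter peak (chr2:32606358-32608972) with 86.8 and 62.9 in DMSO (rank 6) and 52.2 and 50.3 in JNKi (rank 10). Twsg1, which encodes a secreted modulator of BMP signalling, had 73.2 and 56.3 in DMSO and 99.3 and 45.3 in JNKi. The lowest of these replicate values stood at percentile 98.9 of its list. Of the 50 highest peaks, 16% in DMSO (8.34 to 28.5) and 12% in JNKi (5.62 to 23.8) had a summit window that was at least 50% soft-masked as repeat in the reference, against 2.66% and 3.31% of all peaks, and the part of repeats in the top ranks was not tested.

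At equal list length, the 8 DMSO-only genes with the highest peaks were Lamtor1, Satl1, Mypop, Cdk19, Ppp2r5a, Abcb8, Usp5 and Zfp868. Apart from Lamtor1 none of them had a DMSO peak overlapped in JNKi. Cdk19, a kinase of the Mediator complex, had −log10 p values of 27.9 and 38.3 at its promoter (chr10:40348893-40349135, rank 49), and Ppp2r5a, a regulatory subunit of the phosphatase PP2A, had 32.6 and 25.8 (chr1:191397356-191397564, rank 60). Usp5, which encodes a deubiquitinase, had 32.0 and 23.5 (rank 75). These promoter peaks were narrow, at 243 bp, 209 bp and 220 bp, where the median best peak of DMSO-only genes in the full list was 566 bp.

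The 8 JNKi-only genes chosen in the same way were Tax1bp3, Tomt, Jund, Slc35f5, Cdk15, Iapp, Smdt1 and Zc3h4. For Tax1bp3, Cdk15 and Iapp the label depended on list length, because each had a lower DMSO peak, at ranks 4551, 3081 and 1950. Tax1bp3, which encodes a PDZ protein, shows how the weaker replicate set the order. Its DMSO peak (chr11:73176263-73178041) had a −log10 p of 66.8 in one replicate and 3.57 in the other, and its JNKi peak 50.8 and 74.2 (rank 9). Iapp encodes islet amyloid polypeptide, which β cells secrete with insulin, and its peak in an intron of the neighbouring Slco1a5 (chr6:142288876-142290619) had 13.0 and 6.72 in DMSO, and 19.4 and 18.2 in JNKi (rank 75). Jund had no peak in the full DMSO list. Its JNKi promoter peak (chr8:70698503-70698722, 220 bp) had 29.1 and 26.6 (rank 27).

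Genes with many peaks were examined for a loss of single sites. The 97 genes with 5 or more DMSO peaks had 644 of them in all and 218 JNKi peaks, or 33.9%, close to the 32.9% of the whole lists. The median was 6 peaks in DMSO and 2 in JNKi, and 96 of the 97 had fewer in JNKi, a direction that choosing genes by their DMSO count in the longer list favours. Irf2bp2 had 15 DMSO peaks and 6 in JNKi, Zmiz1 14 and 9, Zfp608 13 and 2, Camta1 12 and 2, Maml3 12 and 6, and Ubl3 11 and 7. Gm47283 on chromosome Y, where the same sequence can lie in several places, had 12 and 7. Zmiz1 encodes a transcriptional coregulator, Camta1 a calmodulin-binding transcription activator, and Maml3 a coactivator of Notch signalling. The peaks of Irf2bp2 covered 223 kb and ranked from 10 to 4394, and 6 of them were overlapped in JNKi. No JNKi peak was left at 15 of the 97 genes, among them Pax6, a transcription factor of islet cells (8 DMSO peaks, best rank 2001), Cited2, a coactivator that binds CBP and p300 (8, best rank 792), Sox4 (6), Pde4b (6, best rank 250), Pde10a (6), Klf7 (5, best rank 259) and Zfp36l2 (5). Ptpru, a receptor tyrosine phosphatase gene, was the exception with 10 peaks in each list. Of its DMSO peaks 7 were overlapped, and the sites lay over 198 kb of intergenic or intronic sequence with their best ranks at 80 in DMSO and 59 in JNKi.

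**Figure D3:**
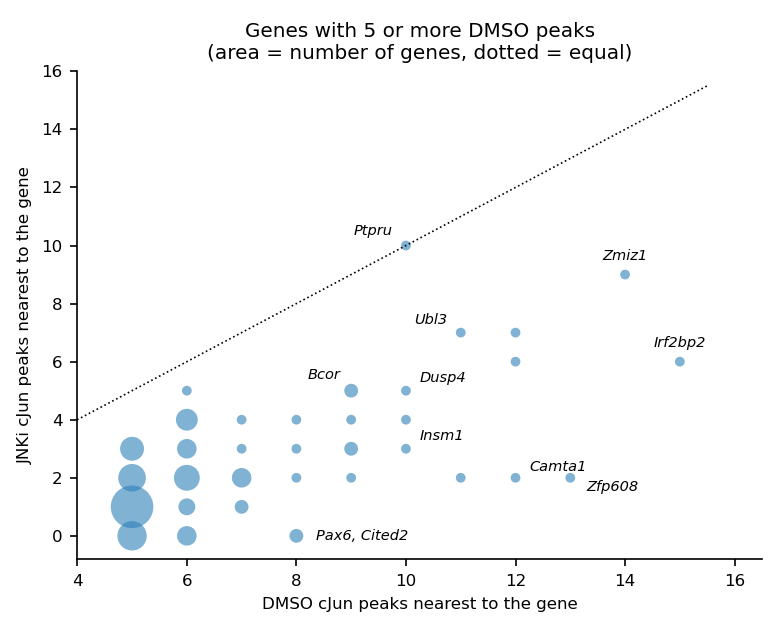
Each disc stands for the genes with a given number of DMSO peaks (x axis) and JNKi peaks (y axis) among the 97 genes with 5 or more DMSO peaks, and its area is the number of genes. All discs except that of Ptpru (10 and 10) lie below the dotted line of equal numbers, and Pax6 and Cited2 had 8 and 0.

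Gene lists were next described by how many members had a peak, beside 15.8% of all protein-coding genes. The 11 lists of 30 or fewer genes held 202 genes, of which 47 had a peak in both treatments (23.3%), 46 in DMSO only (22.8%) and 6 in JNKi only (2.97%). At equal list length the same counts were 31, 18 and 22. H3K4me3 lay at a start site of 90.1% of the 202 genes against 56.9% of all genes, and their median stretch was 73.6 kb against 47.1 kb, so the lists differ from all genes in both respects. Over all genes the shares were 4.73% in both, 9.95% in DMSO only and 1.15% in JNKi only, and at equal length 3.11%, 2.91% and 2.77%. Among the 12458 genes with H3K4me3 the full lists gave 7.06% in both, 14.6% in DMSO only and 1.69% in JNKi only.

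MAP kinase phosphatase genes, which encode enzymes that inactivate JNK, ERK and p38, had the highest share of members in both treatments among the 16 lists. Of 10 members, 6 had peaks in both treatments (60.0% against 4.73% of all genes), 1 in DMSO only and 0 in JNKi only, and at equal length 5 were in both (against 3.11% of all genes), 1 in DMSO only and 1 in JNKi only. Dusp16, a phosphatase of JNK and p38, had a peak at its start site (chr6:134792277-134793017) with a −log10 p of 33.3 and 28.3 in DMSO (rank 47), and 56.1 and 63.3 at the same place in JNKi (rank 7). Dusp1, the immediate early member, had 21.2 and 17.2 in DMSO (rank 186), and 17.2 and 28.8 in JNKi (rank 84). The Dusp8 peak with the CREs shown above had 6.72 and 8.65 in DMSO (rank 1951), and 20.2 and 14.9 in JNKi (rank 121). Each of these promoters thus had a peak at the same place in both lists, at percentiles of 99.1 and 99.6 for Dusp16, 96.3 and 94.9 for Dusp1, and 60.7 and 92.6 for Dusp8, of the DMSO and the JNKi list. Dusp4 had 10 DMSO and 5 JNKi peaks, Dusp5 4 and 2, and Dusp10 4 and 2. The best DMSO and JNKi peaks of Dusp4 lay 184908 and 184758 bp from its start site. Those of Dusp10 lay 106327 and 106330 bp away, and those of Dusp5 28756 and 11508 bp. The median stretch of the list was 92.6 kb against 47.1 kb for all genes. With peaks limited to 50 kb, 5 members were in both and 2 in DMSO only, beside 766 and 1805 of all 21911 genes. Dusp7, a phosphatase of ERK, had 3 DMSO peaks, of which the promoter peak had 14.5 and 14.6 (rank 293), and none in JNKi. Its AP-1 site printed above lay under another of these peaks, at rank 4472 with an IDR of 0.729.

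Among 10 AP-1 genes, Jun and Fosl2 had peaks in both lists (20.0% against 4.73% of all genes) and Jund in JNKi only (1.15% of all genes), and at equal length the counts were 2 in both, 0 in DMSO only and 1 in JNKi only. Jun had 5 DMSO peaks and 1 JNKi peak. Its best DMSO peak (chr4:95052456-95053187) had 15.1 and 12 (rank 469) and its JNKi peak (chr4:95051616-95052703) 11.7 and 12.7 (rank 203), and they overlapped at the start of the gene. Of 17 CREB and ATF genes, 4 had peaks in both (Atf3, Creb3l2, Crem and Crebl2) and 4 in DMSO only (Atf4, Atf7, Creb1 and Creb3l1), which is 23.5% each against 4.73% and 9.95% of all genes. At equal length 3 of them were in both, 0 in DMSO only and 1 in JNKi only. Crebl2 stood highest, at rank 79 in DMSO with 23.5 and 23.2 and at rank 150 in JNKi with 17.5 and 13.3. Of 22 genes of the JNK pathway, 3 had peaks in both (Map3k4 and Map3k5, kinases that act upstream of JNK, and Spag9, a scaffold), and 4 in DMSO only (Mapk10, Map3k1, Mapk8ip1 and Tab2), or 13.6% and 18.2% against 4.73% and 9.95% of all genes. At equal length 1 of the 22 was in both (4.55% against 3.11% of all genes), 1 in DMSO only and 2 in JNKi only.

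Immediate early genes are transcribed within minutes of a stimulus. Of 24 members, 5 had peaks in both lists (Klf4, Klf10, Myc, Btg2 and Maff; 20.8% against 4.73% of all genes), 10 in DMSO only (41.7% against 9.95%) and 1 (Ier2) in JNKi only. The DMSO-only class was also the largest over all genes, with 2181 of the 3468 that had a peak. At equal list length the counts were 4, 7 and 2. With peaks limited to 50 kb they were 4, 11 and 1, beside 766, 1805 and 246 of all 21911 genes. The Myc peak found in both lists lay 581877 bp from its start site in DMSO and 581844 bp in JNKi. Egr1, a zinc finger factor, had the highest DMSO-only peak, at its start site, with 23.9 and 21.0 (rank 113, 216 bp wide). Nr4a3, Klf2, Klf6 and Csrnp1 had promoter peaks in DMSO only, at ranks 1161, 976, 1447 and 2394. Klf4 had 4 DMSO and 3 JNKi peaks. The one upstream of its start that carries the AP-1 site shown above had 17.3 and 11.8 in DMSO (rank 494), and 11.8 and 14.7 in JNKi (rank 199). Maff, a small MAF factor, had 21.6 and 4.78 in DMSO (rank 3544), and 16.6 and 18.8 in JNKi (rank 100).

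β-cell genes were found in both classes. Of 23 β-cell transcription factor genes, 7 had peaks in both lists (Pdx1, Neurod1, Nkx6-1, Nkx2-2, Foxa2, Foxo1 and Insm1), or 30.4% against 4.73% of all genes, and 5 in DMSO only (Pax6, Isl1, Rfx3, Myt1 and St18), or 21.7% against 9.95%. The median stretch of these genes was 141 kb against 47.1 kb for all genes. Foxa2, a pioneer factor of the endoderm, kept a peak 301823 bp from its start site with 21.3 and 33.8 in DMSO (rank 104), and 16.2 and 27.4 in JNKi (rank 106). Insm1, needed for endocrine differentiation, had 10 DMSO and 3 JNKi peaks, all in introns of the neighbouring Ralgapa2. Nkx6-1 had 7 DMSO and 2 JNKi peaks. Isl1 and Rfx3 had promoter peaks at ranks 433 and 261 in DMSO and none in JNKi. With peaks limited to 50 kb the counts became 4 in both and 7 in DMSO only, beside 766 and 1805 of all 21911 genes. At equal list length 5 were in both, 2 in DMSO only and 2 in JNKi only.

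Of 17 hormone and granule peptide genes, 8 (47.1% against 4.73% of all genes) had peaks in both lists (Ins2, Pyy, Iapp, Cck, Npy, Chga, Scg2 and Scg3), 2 in DMSO only (Scg5 and Vgf) and 1 in JNKi only (Chgb). At equal length 3 were in both and 6 in JNKi only, against 3.11% and 2.77% of all genes, since several of the DMSO peaks ranked below the 1632 highest. Ins2, an insulin gene, had a promoter peak with 4.80 and 9.64 in DMSO (rank 3524), and 6.41 and 5.5 in JNKi (rank 989), both with an IDR above 0.5. Cck, which encodes cholecystokinin, had 2 DMSO peaks at ranks 2110 and 4899, and 1 JNKi peak at rank 1363 that overlapped the lower of them. Of 16 genes of glucose sensing and insulin processing, 13 had a peak (81.2% against 15.8% of all genes), with a median stretch of 132 kb. Of these 5 were in both (Slc2a2, Kcnj11, Slc30a8, Glp1r and Pcx) and 8 in DMSO only (G6pc2, Abcc8, Cacna1c, Pcsk1, Pcsk2, Cpe, Gipr and Ffar1). The 3 DMSO and 2 JNKi peaks given to Kcnj11 all lay in introns of the neighbouring Abcc8. Abcc8 was thus DMSO only by nearest start site, although JNKi peaks lay inside it. Pcx, the gene of pyruvate carboxylase, had a promoter peak with 21.1 and 31.4 in DMSO (rank 109), and 9.86 and 24.6 in JNKi (rank 298). The best DMSO peaks of the DMSO-only members ranked from 744 (Cpe) to 3942 (Pcsk1). At equal length 3 of the 16 were in both, 2 in DMSO only and 2 in JNKi only.

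Stress, cell cycle and cell death genes had 12.5%, 8.0% and 12.5% of members in both lists, against 4.73% of all genes and 7.06% of genes with H3K4me3. Of 24 genes of the unfolded protein response, 3 had peaks in both lists (Ern1, Eif2ak3 and Dnajb9), 3 in DMSO only (Hsp90b1, Atf4 and Edem1) and 1 in JNKi only (Ddit3), and at equal length 2, 1 and 2. The Dnajb9 peaks lay 702167 bp (DMSO) and 702226 bp (JNKi) from its start site, with an IDR of 0.729 and 0.672. Eif2ak3, which encodes the stress kinase PERK, had 33.1 and 18.7 in DMSO (rank 150), and 29.6 and 23.5 in JNKi (rank 39) over the AP-1 site printed above. Of 25 cell cycle genes, 2 were in both (Ccnd2 and Cdkn2c), 9 in DMSO only (36.0% against 9.95% of all genes) and 1 (Ccne2) in JNKi only, and at equal length 1, 4 and 2. Cdkn1b, the gene of the inhibitor p27, had 4 DMSO peaks, of which the best lay at its start site with 13.1 and 21.3 (rank 366), and none in JNKi. Of 16 Bcl2 family genes, Bmf and Bbc3 were in both, Mcl1 in DMSO only and Bcl2l11, the gene of the death factor BIM, in JNKi only, and at equal length the counts were 2, 0 and 1. Bbc3, which encodes PUMA, had its best DMSO peak at rank 589 with 11.1 and 14.5. Its best JNKi peak (chr7:16312258-16314558) stood at rank 29 with 26.7 and 26.5, and overlapped a DMSO peak of 5606 bp at rank 3878 with 4.35 and 23.0.

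The 5 larger lists gave a spread of backgrounds. Olfactory and vomeronasal receptor genes, which are expressed mainly in sensory tissue, had a peak at 4 of 1418 members (0.282%), all in DMSO only, and H3K4me3 at 0.212%. Cytosolic ribosomal protein genes had a peak at 12 of 83 (14.5%), 5 of them in both, and zinc finger Zfp genes at 73 of 365 (20.0%), 21 of them in both. Genes of the integrin, collagen and laminin list, a pattern that also takes in the integrin-binding gene Itgb1bp1, had a peak at 15 of 80 (18.8%), 3 in both and 12 in DMSO only, and at equal length 1 in both, 2 in DMSO only and 2 in JNKi only.

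Clustered histone genes had a peak at 27 of 67 members (40.3%), 22 in DMSO only (32.8% against 9.95% of all genes), 4 in JNKi only and 1, Hist3h2a, in both. The highest were Hist1h4k (rank 140), Hist2h4 (rank 211) and Hist1h2bf (rank 414), and every best DMSO peak lay within 1075 bp of the start site. These genes stand close together, with a median stretch of 4.74 kb. Of the 22 DMSO-only genes 3 had a peak that JNKi also held but that fell to a neighbour, and the same was true of 3 of the 4 JNKi-only genes. By site, 4 of 25 DMSO peaks and 4 of 5 JNKi peaks at histone genes were overlapped. At equal list length 7 members were in DMSO only, 4 in JNKi only and 1 in both.

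**Figure D4:**
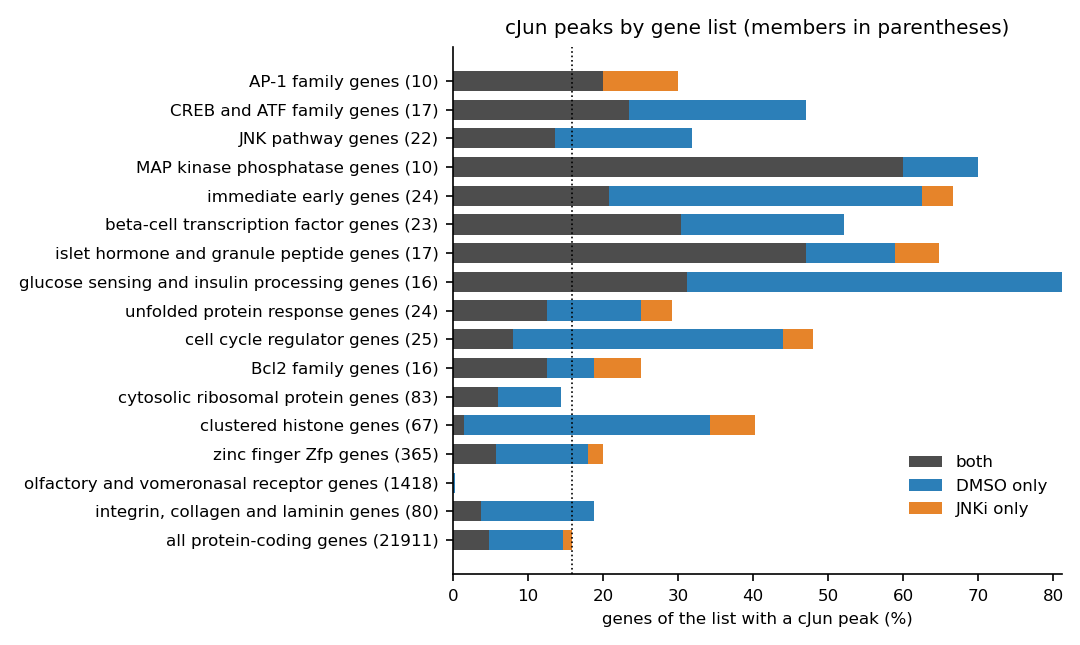
Bars are the percent of the members of each gene list (number of members in parentheses) with a cJun peak in both treatments, in DMSO only or in JNKi only, from the full peak lists, and the dotted line is the 15.8% of all protein-coding genes. MAP kinase phosphatase genes had 60.0% in both, clustered histone genes 32.8% in DMSO only, and olfactory and vomeronasal receptor genes 0.282% in all.

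The last comparison asked whether peaks held in both treatments changed their place among each other, which is the 1 comparison here with replicate values. The 1150 pairs of overlapping peaks, at 931 genes, were ranked within each replicate, the ranks were turned into normal scores, and JNKi was compared with DMSO by limma with 2 replicates on each side. No pair passed a Benjamini-Hochberg adjusted p of 0.05 in limma (0 lower and 0 higher in JNKi), and the smallest adjusted p was 0.879. At an unadjusted p of at most 0.05 there were 25 lower (2.17%) and 19 higher (1.65%). The JNKi ranks lay both below the DMSO ranks at 206 pairs (17.9%) and both above at 199 (17.3%). With 2 replicates on each side such separation is frequent without any change, and these counts were not tested. Replicates of the same treatment correlated across pairs with a Spearman's rho of 0.454 in DMSO and 0.449 in JNKi, and replicates of different treatments with 0.398 to 0.470, a description across peaks that share their libraries. The range between treatments thus took in the values within them.

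The pairs with the smallest p are given by their percentile among shared peaks in each replicate, as values that did not pass the test. Toward lower ranks in JNKi were Pax5, Tomm20, Setd1b, Rybp, Hs3st6 and Plekhg6. Pax5, a paired-box factor of B cells, stood at percentiles 59.6 and 79.7 in DMSO and at 4.65 and 6.78 in JNKi, a difference of −2.12 ± 0.57 in normal score (SE, limma, adjusted p = 0.879). Setd1b, which encodes an H3K4 methyltransferase, stood at 54.6 and 96.6 in DMSO, and at 0.13 and 26 in JNKi. Toward higher ranks were Rpia, Npvf, Mast4, Dusp8, F2rl1 and Agtr1b. The Dusp8 promoter stood at 17.3 and 38.2 in DMSO and at 92 and 82.7 in JNKi (difference 1.79 ± 0.58, limma, adjusted p = 0.879). At each of these pairs the replicates of the treatments did not overlap, which was also so at the 17.9% and 17.3% of all pairs given above.

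**Figure D5:**
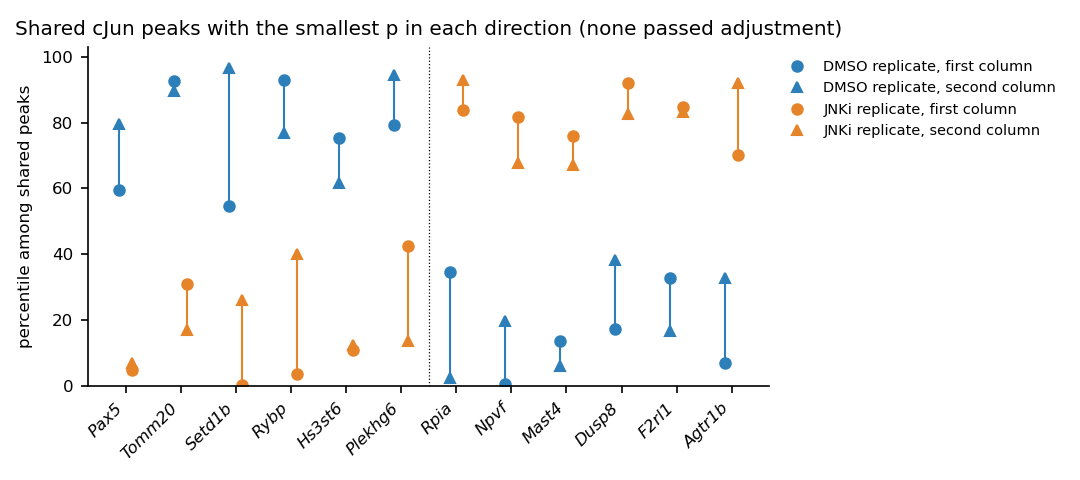
Points are the percentile of a peak among the 1150 shared peaks in each of 4 replicates (y axis) for the 6 pairs with the smallest p in each direction, named by their nearest gene (x axis), and lines join the replicates of a treatment. Pax5 and the 5 genes beside it are lower in JNKi and Dusp8 with the others right of the dotted line higher, and none passed adjustment in limma (adjusted p = 0.879).

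The sequences under the peaks were then compared between gene classes. An AP-1 site lay within 100 bp of the summit in 10.9% of DMSO peaks at shared genes (9.63 to 12.2) and 9.31% at DMSO-only genes (8.28 to 10.5), against 3.64% and 3.80% in windows shifted by 2 kb. In JNKi it lay in 12.6% of peaks at shared genes (10.9 to 14.4) and 9.41% at JNKi-only genes (6.41 to 13.6), against 3.85% and 4.31%. Intervals overlapped between the classes of each list. They lay above those of the shifted windows except for JNKi-only genes, where the shifted windows had an interval of 2.87 to 6.44. The CRE was rarer, at 15 of 1632 DMSO peaks at equal length (0.919%, 0.558 to 1.51) and 29 of 1632 JNKi peaks (1.78%, 1.24 to 2.54), with 0.0613% and 0.0306% in shifted windows. The GC box GGGCGG, common in promoters, lay in 27.5% of JNKi peaks at JNKi-only genes (22.3 to 33.2) and 18.2% at shared genes (16.3 to 20.4), with 4.51% and 4.76% in shifted windows. At equal length these shares were 22.7% (19.7 to 26.1) and 17.6% (15.3 to 20.1), with overlapping intervals, and DMSO peaks at DMSO-only genes had 20.6% (17.7 to 23.8). The CCAAT box (CCAAT) lay in 22.5% of JNKi peaks at shared genes and 23.1% of shifted windows, and was no more frequent at the summits. Over all DMSO peaks it was less frequent there, at 21.6% (20.4 to 22.7) against 24.8% (24.0 to 25.7) of shifted windows.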

How the data were processed

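The input was cJun and H3K4me3 CUT&RUN peak lists. Per the labels, 12 samples fall into 6 groups of 2, and 150 bp paired-end reads were sequenced to a stated depth of 30000000 per sample. The authors trimmed reads with Trimmomatic, aligned them to GRCm38 with Bowtie2 2.4.2, filtered them with SAMtools 1.16, called peaks per replicate with MACS2 2.2.7.1 against IgG and paired replicates with IDR. The deposited values are −log10 p-values of the merged peak and of each replicate, the merged value being the lower in 100% of cJun peaks, and the −log10 of the global IDR, and the lowest merged value was 3.01 in each cJun list. The study's own −log10 p was used only for order within a list. The columns of the replicates are unnumbered and are called first and second by position.

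Here each peak midpoint was given to the nearest of 41525 start sites of protein-coding genes (GENCODE vM21 basic, mitochondrial genes left out; 2 peaks were tied and went to the first symbol in the alphabet). Sequences and soft-masking came from the RefSeq copy of GRCm38, and all 9 printed runs came from it. Shared peaks overlapped by at least 1 bp and were used once. Normal scores of ranks within replicates were tested with limma 3.58.1 (R 4.3.3), two-sided, with Benjamini-Hochberg adjustment over 1150 pairs. Tables were made with Python 3.11.15, numpy 2.4.6, pandas 2.3.3 and matplotlib 3.10.9. The gene assignment, overlap, motif and rank steps were tested on simulated data.

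The genes and lists were chosen with earlier results of these data known. Named genes were the 8 highest of each class at equal list length outside chromosome Y and scaffolds, the 6 pairs with the smallest p in each direction, the 6 genes with most peaks in each list, members of lists of 30 or fewer genes with an IDR of at most 0.05 in either list, and Cck and Jun. Genes named outside this rule, the repeat share and the stretch of sequence per gene were chosen after the values were seen. Alternatives covered distance, IDR, start sites, annotated point, chromosomes, list length, overlap, scale, left-out replicates, H3K4me3 window and motif window. Reads, coverage and IgG libraries were not analysed here.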

Additional observations from a re-analysis of the deposited data

How the results depend on the processing

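Of 82 alternative values of the main results, 56 kept their value within the set limits and 26 moved, as did 8 of 32 for single gene lists. Using gene starts in place of transcript starts, summits in place of midpoints, or chromosomes 1 to 19 and X moved none of the gene counts or shares. Stricter limits leave fewer genes by construction. Within 3 kb of a start site, 1523 DMSO and 549 JNKi genes had 359 in common, 65.4% of the JNKi genes, and at equal length 224 in common, 40.8%. Within 50 kb the shared share of JNKi genes was 75.7%, and 48.7% at equal length. At an IDR of at most 0.05, 397 DMSO and 227 JNKi genes had 146 in common (64.3% of the JNKi genes), and 121 at equal length. The 500 highest peaks of each list had 208 genes in common, 46.7% of the JNKi genes. H3K4me3 at DMSO-only genes was 84.7% within 1 kb and 87.4% at equal length. Of the 202 list genes, equal lists gave 31 in both, 18 in DMSO only and 22 in JNKi only. Within 50 bp of the summit the AP-1 site lay in 6.32% and 4.96% of DMSO peaks at shared and DMSO-only genes, and in 6.97% and 5.49% of JNKi peaks at shared and JNKi-only genes. The rank test called 0 pairs in either direction in every alternative, with 31 to 71 pairs at an unadjusted p of at most 0.05, also when each replicate column was left out in turn (0 to 0 calls), where the lone column is assumed to vary like the other treatment. At an IDR of at most 0.05 the non-overlapping pairs were 82 below and 85 above of 365. No paired analysis was possible because the replicate columns carry no replicate numbers. The reads left after filtering are not given in the sources used here, which limits every comparison of list length, and the gene classes follow the p cut-off of each list.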
